A study of Mus musculus with 20 samples.

Results

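Hair follicle stem cells of old and young male mice were compared in telogen, the resting phase of the hair cycle. The 24-month group, which the labels call aged and for which they name no diet, had 3 telogen arrays. The 2-month group, titled ND 4d telogen, had a normal diet for 4 days and also had 3 arrays. These 6 arrays are part of 20 in the series. The rest come from 2-month mice on a high fat diet (HFD) for 4 days, from 5-month mice on either diet for 3 months, and from anagen, the growth phase, with 1 array per condition. The labels name neither a strain nor how the cells were sorted, nor whether each replicate was a different animal. The p-values therefore cover the variation among these arrays, which may be technical. All genes entered the comparison through probes that the scanner software marked as well above background on each array of 1 group or of both. That left 18207 genes, of which 15756 were well above background on all 6 arrays. A level is the log2 of the deposited signal, which is a spot's intensity over the 75th percentile of its array, and a difference is the 24-month mean minus the 2-month mean on that scale. A gene is called bright on both sides when its probe was well above background on all 6 arrays and its mean in each group was at or above -0.78, the median level of the tested genes. This held for 8419 genes, which carry most of what follows, since their differences were measured in both groups.

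Stem cells of the follicle lie in the bulge, a niche below the sebaceous gland that stays in place while the lower follicle regresses and regrows. They rest through telogen under BMP and FGF signals, are activated by Wnt signals at the start of anagen, and are held to their basement membrane by hemidesmosomes, in which the transmembrane collagen Col17a1 links to laminin. In old skin the resting phase lengthens, and loss of bulge cells into the epidermis is a known route to hair thinning.

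Upstream sequences are shown for 3 genes, so that known control elements can be seen beside their values. The first is Bhlhe41 (Dec2), a repressor of the circadian clock and, of the 24 bright genes described below, the one with the largest difference. Clock activators bind the E-box CACGTG, which is in capitals. The others are Fos and Fosb, immediate early genes that code for subunits of the AP-1 transcription factor, with TGACG, the core of the cAMP response element, in capitals. Each run holds the 250 bases before the annotated transcription start, read 5′ to 3′ on the gene's strand, from RefSeq on GRCm38.p6. They lie at chr6:145865421-145865670 on the minus strand for Bhlhe41, at chr12:85473640-85473889 on the plus strand for Fos and at chr7:19310046-19310295 on the minus strand for Fosb.
Bhlhe41: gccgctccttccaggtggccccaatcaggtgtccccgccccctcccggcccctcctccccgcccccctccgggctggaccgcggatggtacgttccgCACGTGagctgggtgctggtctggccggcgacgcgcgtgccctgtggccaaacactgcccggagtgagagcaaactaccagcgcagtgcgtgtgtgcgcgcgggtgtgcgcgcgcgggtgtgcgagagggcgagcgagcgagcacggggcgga
Fos: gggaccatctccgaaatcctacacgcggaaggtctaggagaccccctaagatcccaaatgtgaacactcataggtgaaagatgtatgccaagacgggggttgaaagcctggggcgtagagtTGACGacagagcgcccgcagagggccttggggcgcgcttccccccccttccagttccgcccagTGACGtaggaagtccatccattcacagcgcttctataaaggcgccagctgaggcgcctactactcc
Fosb: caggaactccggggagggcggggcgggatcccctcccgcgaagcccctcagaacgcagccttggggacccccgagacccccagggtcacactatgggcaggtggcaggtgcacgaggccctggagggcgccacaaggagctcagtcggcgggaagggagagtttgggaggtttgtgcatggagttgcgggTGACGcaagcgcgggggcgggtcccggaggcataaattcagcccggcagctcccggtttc
Between the Bhlhe41 E-box and the start lie 147 bases. Between the Fos matches and the start lie 124 and 61 bases, and after the Fosb match 55 bases. Searched on both strands, CACGTG was present in 6.02% of 32851 upstream windows of this length and TGACG in 17.8%. By gene, 5 of the 15 clock genes with a window held CACGTG (Bhlhe41, Ciart, Cry1, Per1 and Tef), against 6.86% of 27025 genes. TGACG was in 14 of 25 immediate early genes, against 19.8%. A match is a match of letters and was not measured as a binding site.

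Between 70.28% and 74.64% of spots were well above background on the 24-month arrays and between 77.09% and 83.49% on the 2-month arrays. The median standard deviation of a gene was 0.63 in the 24-month and 0.49 in the 2-month group (n = 3 each). Across genes, arrays of the 24-month group correlated at 0.881 to 0.897, arrays of the 2-month group at 0.879 to 0.901, and arrays of different groups at 0.868 to 0.905, so the ranges within and between groups overlapped. The 2-month arrays lay on slide 2 and the 24-month arrays on slide 3, so in telogen age and slide cannot be told apart. Of the bulge markers, all 11 were well above background on all 6 arrays, with a mean level of 4.14, 4.53 and 4.69 on the 24-month and 4.61, 4.99 and 4.80 on the 2-month arrays.

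Few genes separated the ages beyond replicate error. limma called 7 of 18207 genes (0.0384%) at a Benjamini-Hochberg adjusted p below 0.05, with 6 higher (0.033%) and 1 lower (0.00549%) at 24 months. Among the 8419 bright genes it called 0 (0%), while 137 higher (1.63%) and 402 lower (4.77%) lay at an unadjusted p below 0.05. Over all tested genes the unadjusted counts were 539 higher (2.96%) and 917 lower (5.04%). The split of the calls moved with the scaling of the arrays, to 5 higher and 4 lower with median scaling and 8 higher and 4 lower with quantile normalization. Of all tested genes 56.5% lay below 0 and 43.5% above. Over the bright genes 58.6% lay below 0 and 41.4% above, with a median difference of -0.10. That offset depends on scaling as well, since the median over all genes was -0.09 as deposited, -0.22 with median scaling and 0.01 when the percentile was taken over probes detected on all telogen arrays. The 95% interval of a bright gene's difference reached a median of 0.95 to either side, so a change of less than about that size could not be told from 0 for a typical gene.

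**Figure D1:**
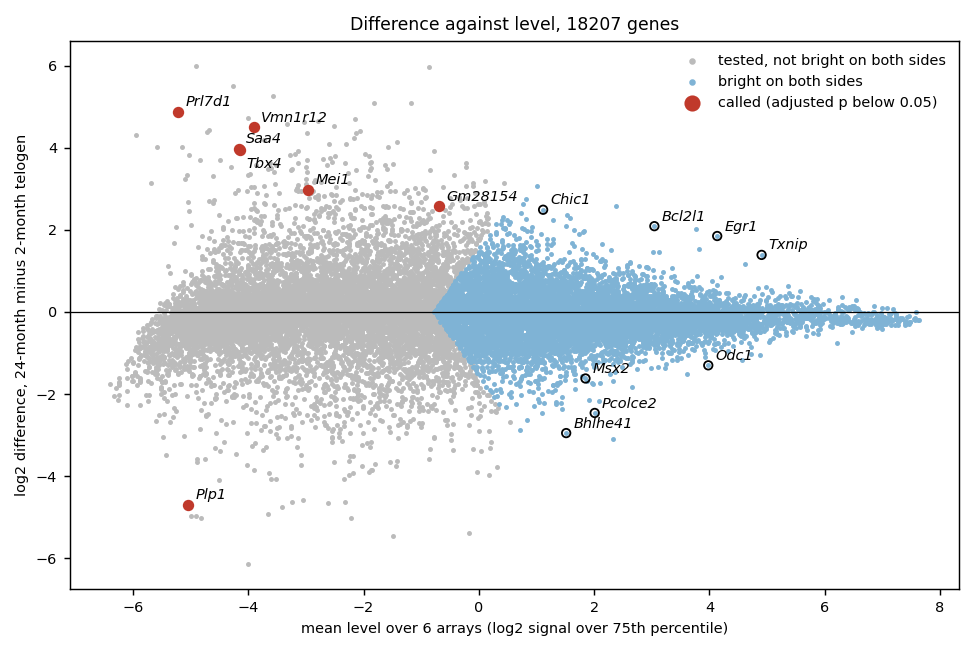
Difference in log2 level (24-month minus 2-month telogen) against the mean level over the 6 arrays for each of 18207 genes; red points passed the test, blue points were bright on both sides, and open circles mark 8 of the bright genes described in the text. None of the 7 called genes was bright on both sides, and the spread of differences narrows as the level rises.

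None of the genes that rose at 24 months was bright on both sides, and the 5 named first below had means under -0.78 in both groups. Vmn1r12, a vomeronasal receptor gene, stood at -1.31, -2.28 and -1.36 on the 24-month arrays and at -6.16, -6.51 and -5.80 on the 2-month arrays. None of the 2-month arrays was well above background, so the change is a bound: at least 19.2-fold higher (limma, adjusted p 0.00055), taking for each dim array the higher of the probe's own value and the lowest signal called well above background there. Such a bound, here and below, concerns the group means and leaves out the spread among arrays. Prl7d1, a placental prolactin family gene, had -1.77, -2.63 and -3.94 against -8.38, -7.97 and -6.64, and was at least 8.78-fold higher (limma, adjusted p 0.0044). In both genes every 24-month array lies above every 2-month array, which the rule for naming called genes required. Mei1, a gene of meiotic recombination, was well above background on all 6 arrays. It stood at -1.61, -1.40 and -1.42 against -4.29, -4.72 and -4.35 and rose by 2.98 ± 0.31 (SE; limma, adjusted p 0.00439). Its second probe gave 0.09 ± 0.40, and Mei1 was not called on the mean over its probes. Saa4, of the serum amyloid A family, had -2.01, -1.21 and -3.28 against -5.97, -6.51 and -5.97, a rise of 3.98 ± 0.52 (limma, adjusted p 0.0171). Tbx4, a transcription factor of hindlimb development, had -3.02, -2.16 and -1.36 against -6.51, -6.64 and -5.21, a rise of 3.94 ± 0.55 (limma, adjusted p 0.0261). Saa4 and Tbx4 were each well above background on 1 of the 3 2-month arrays, so these sizes rest partly on signals near background. Gm28154, a predicted gene outside the naming rule and chosen after its values were seen, rose by 2.58 ± 0.35 (limma, adjusted p 0.0225), from a mean of -1.98 to one of 0.60. Some of these calls depend on the setting: Prl7d1 and Tbx4 were not called with normexp background correction, Tbx4 not with array weights, and Gm28154 not with median scaling. Vmn1r12, Mei1 and Prl7d1 were called whichever single array was left out, and Saa4, Tbx4 and Gm28154 were not.

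Arrays outside the comparison bear on these calls. Slide 3 also carried anagen arrays of the 24-month group and of 2-month HFD mice, and the latter lay in the same row as the 24-month telogen arrays. On that 2-month HFD anagen array Vmn1r12 stood at -2.40, Prl7d1 at -3.02, Saa4 at -2.57 and Mei1 at -0.94, levels near those of the 24-month telogen arrays. On the 24-month anagen array, in the other row, the same genes were at -7.16, -7.16, -6.80 and -4.54. So 4 of the 6 genes that rose were high on all arrays of 1 row of a slide, at either age, and low on the 24-month array outside that row. Tbx4 differed from these and stood at -7.64 on the HFD and -7.16 on the 24-month anagen array. Counted over all 6 risen genes, the 24-month anagen array reached the range of the 24-month telogen arrays in 0, the 2-month HFD anagen array in 3 and the 2-month ND anagen array, on slide 2, in 1. Gm28154 had a mean of 1.30 in 5-month ND telogen, above the 24-month mean. With slide as a term over all 20 arrays, where the term rests on the single anagen arrays, 0 of the 7 genes stayed called. Vmn1r12, Prl7d1, Saa4 and Mei1 then turned to -3.30, -1.50, -3.45 and -2.64, and Tbx4 gave 1.5. When only the 6 arrays compared were fitted, 0 of 18207 genes passed in limma (1063 at an unadjusted p below 0.05), with 0.059 as the smallest adjusted p. Leaving out 1 array at a time gave 4 or 5 calls, with 4 when 24-month replicate 2 was left out.

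**Figure D2:**
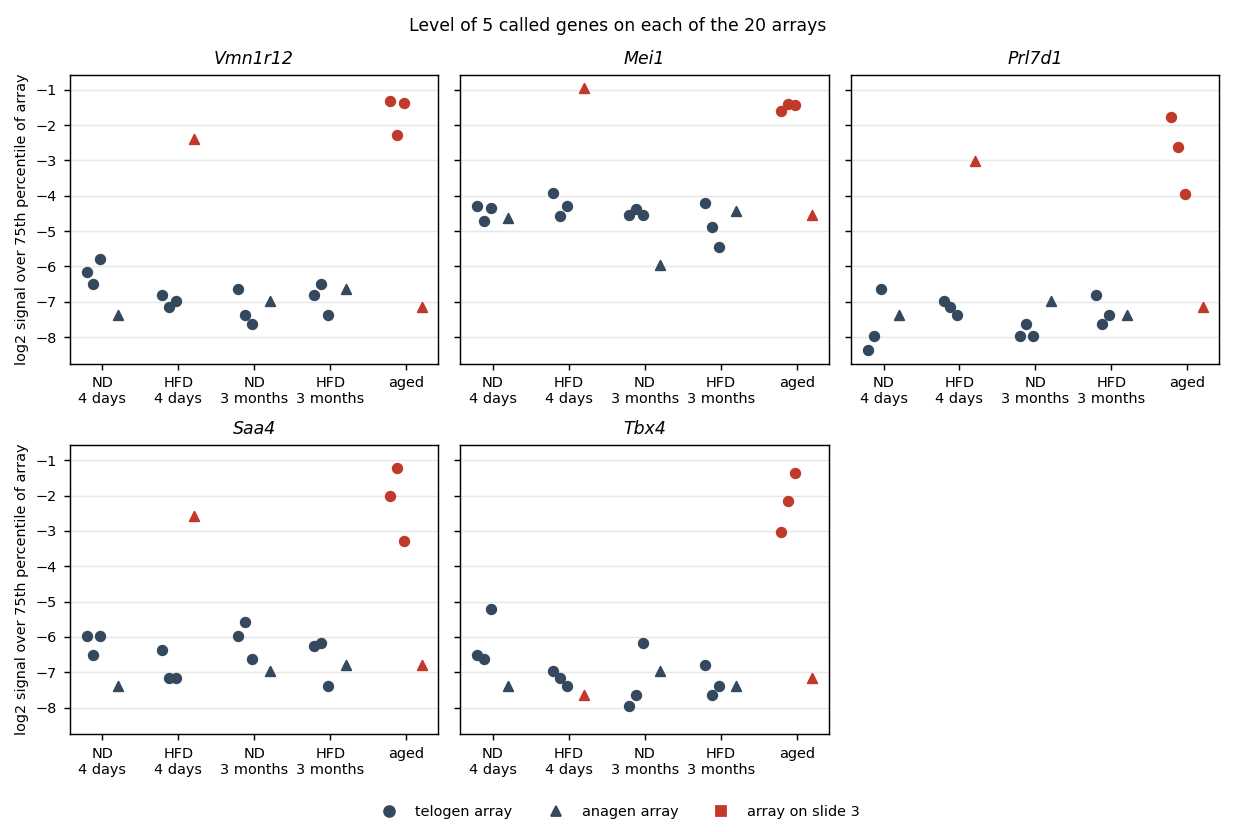
Level (log2 signal over the 75th percentile of the array) of 5 called genes on each of the 20 arrays, by condition; circles are telogen arrays, triangles anagen arrays, and red marks arrays on slide 3. Vmn1r12, Mei1, Prl7d1 and Saa4 are high on the 24-month telogen arrays and on the 2-month HFD anagen array of slide 3, and Tbx4 on the 24-month telogen arrays but on neither anagen array of that slide.

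Over all tested genes, the groups did not overlap in 727 genes with the higher values at 24 months (3.99%) and in 1192 with the lower values (6.55%). Among bright genes, the groups did not overlap in 236 genes with the higher values at 24 months (2.8%) and in 569 with the lower values (6.76%). The 12 of each direction with the smallest p among these bright genes are described next, so their lack of overlap was fixed by the choice. None passed the adjusted threshold, so their differences are given as values.

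The higher genes are given first. Bcl2l1, which codes for the survival protein Bcl-xL, was at 4.08, 4.14 and 4.05 at 24 months and at 2.62, 1.49 and 1.88 at 2 months. The 24-month arrays agree closely, and, as for every gene chosen here, the lowest of them lies above the highest 2-month array. The difference was 2.09 ± 0.52 (95% interval 0.97 to 3.22; limma, adjusted p 0.271), and its 5 tested probes gave 0.18 to 2.09. Birc6, an inhibitor of apoptosis protein, differed by 1.52 ± 0.40, with 2 of its 3 probes higher and 1 lower. Egr1, an immediate early transcription factor, had 4.97, 5.61 and 4.59 against 3.50, 2.56 and 3.57, a difference of 1.85 ± 0.53. Klf10, a transcription factor induced by TGF-beta, differed by 1.47 ± 0.41. Txnip, which binds thioredoxin and restrains glucose uptake, had 5.87, 4.98 and 5.95 against 3.80, 4.47 and 4.36 (1.39 ± 0.39). Angptl4, a secreted inhibitor of lipoprotein lipase and a PPAR target, had 2.68, 1.04 and 1.07 against -0.46, -0.03 and -0.07 (1.79 ± 0.48). Its replicate 1 at 24 months stands above the rest of its group.

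Ly6e, a lipid-anchored protein that interferon induces, had 4.34, 4.55 and 4.85 against 3.47, 2.59 and 3.08 (1.53 ± 0.40). Cst6, a cystatin of the upper follicle and the epidermis that inhibits cathepsins, had 3.48, 3.94 and 3.88 against 2.32, 1.74 and 2.81 (1.47 ± 0.35). In both genes every 24-month array exceeded every 2-month array, as the choice of genes required. Rab11fip5, an adaptor of recycling endosomes, differed by 1.48 ± 0.37, the repressor Zhx2 by 1.23 ± 0.27 and Piwil2, a piRNA-binding protein of the germ line, by 1.69 ± 0.41. Chic1 had the widest gap, 2.49 ± 0.71, with 2.44, 1.93 and 2.72 against -1.29, 0.76 and 0.15. Its 2-month replicate 1 lies far below the other 2-month arrays. With slide as a term all 12 kept their sign, and the value of Rab11fip5 moved by over 1.5 times, to 0.82. That term rests on single anagen arrays, so a kept or turned sign is no firm check of these differences.

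On the lower side the gene nearest to the threshold was Msx2, a homeobox factor of the hair shaft and matrix. It stood at 1.20, 1.12 and 0.79 at 24 months and at 2.58, 2.68 and 2.72 at 2 months. Replicates of either age lie within a narrow band, and the bands are far apart. The difference was -1.62 ± 0.27 (95% interval -2.20 to -1.05; limma, adjusted p 0.0595), and the second probe gave -2.43 ± 0.98. limma with a trend in the variance called it, while with slide as a term the difference was -0.30. Odc1, the rate-limiting enzyme of polyamine synthesis, had 2.79, 3.72 and 3.48 against 4.39, 4.75 and 4.76 (-1.30 ± 0.27, and -0.59 with the slide term), with the second probe at -1.73 ± 0.67. The phospholipid flippase gene Atp11a had 0.17, -0.21 and -0.15 against 1.72, 0.96 and 1.94 (-1.60 ± 0.29, and -0.14 with the slide term). Its other probes gave -1.81 ± 0.38 and -0.20 ± 0.79. Plxna2, a semaphorin receptor, had 0.60, -0.02 and -0.69 against 2.17, 1.71 and 1.89 (-1.96 ± 0.35), and with the slide term its sign turned (0.31). In each of these the 24-month arrays all lay below the 2-month arrays, as the choice of genes required.

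The largest difference in this direction was that of Bhlhe41, whose upstream sequence is shown above. Its levels were 0.78, -0.77 and 0.11 at 24 months and 2.15, 4.00 and 2.82 at 2 months, and the difference was -2.95 ± 0.66 (95% interval -4.39 to -1.51; limma, adjusted p 0.21). A second, dimmer probe gave -0.19 ± 0.88. Pcolce2, an enhancer of procollagen processing, had 0.48, 0.15 and 1.70 against 2.20, 4.07 and 3.45 (-2.46 ± 0.57). Fam171b, a membrane protein gene, differed by -1.96 ± 0.45. Srsf4, a splicing factor, had 1.78, 1.17 and 1.42 against 2.66, 2.62 and 2.47 (-1.13 ± 0.25), and Cdk11b, a kinase of transcription and splicing, differed by -1.40 ± 0.31. The zinc finger genes Zfp345, Zfp708 and Zfp120 differed by -0.97 ± 0.21, -1.10 ± 0.25 and -1.20 ± 0.28. Zfp345 varied least, with 1.79, 1.99 and 1.82 against 2.85, 2.79 and 2.88. The probes of Zfp120 disagreed, 1 lower and 1 not. With the slide term Zfp345 and Zfp708 gave -0.25 and -0.70, and Bhlhe41 and Pcolce2 -7.85 and -6.48. That term draws on the 24-month anagen array, where Pcolce2 was very dim (-6.97).

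**Figure D3:**
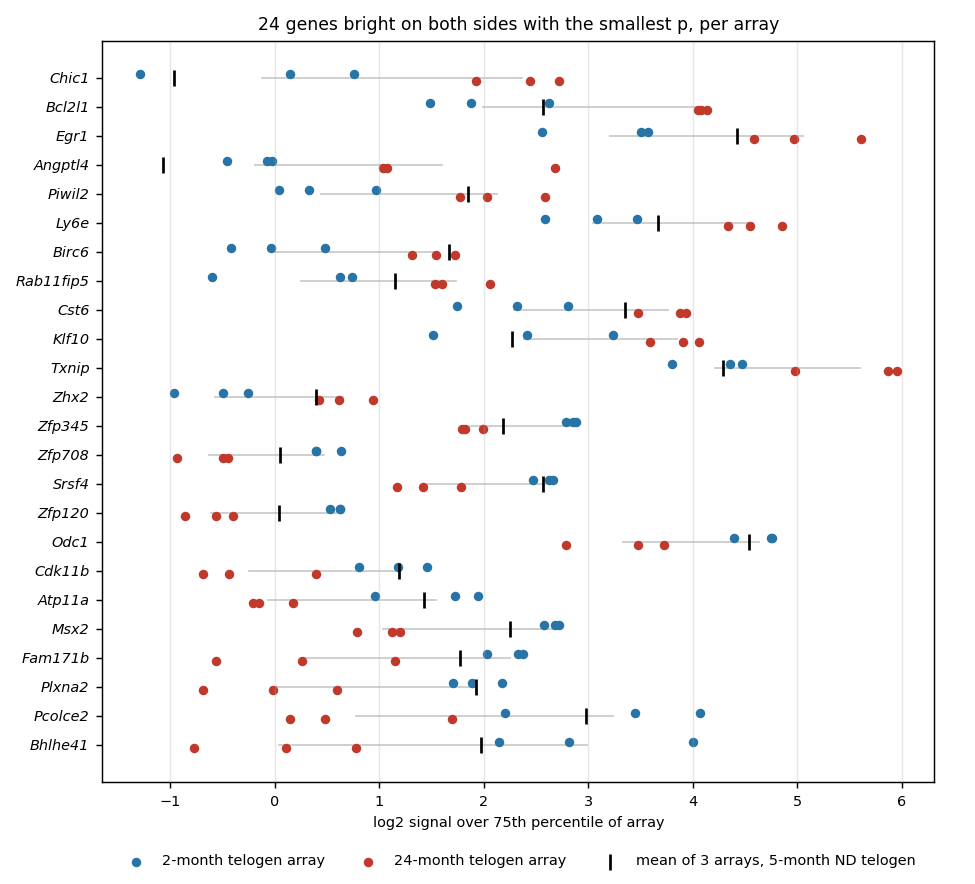
Level (log2 signal over the 75th percentile of the array) of the 24 bright genes with the smallest p, 12 per direction, with each 2-month array in blue, each 24-month array in red and the 5-month ND telogen mean as a black bar; grey lines join the group means. The genes were chosen among those whose groups do not overlap. The 5-month mean lies nearer to the 2-month mean in 11 of the 12 lower genes and in 6 of the 12 higher genes.

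The 5-month ND telogen arrays give an intermediate age, on slide 1. For the 12 lower genes, the 5-month mean was nearer to the 2-month mean in 11, Zfp345 (2.18) being the exception. Msx2 was at 2.25, Odc1 at 4.54, Atp11a at 1.43, Plxna2 at 1.93, Srsf4 at 2.57 and Pcolce2 at 2.98. On the higher side it was nearer to the 2-month mean in 6 of 12, among them Angptl4 (-1.07), Txnip (4.29) and Bcl2l1 (2.57), and nearer to the 24-month mean in the other 6, such as Egr1 (4.42), Cst6 (3.35) and Birc6 (1.67). Over all 569 bright genes lower without overlap the 5-month mean was nearer to 2 months in 368 (64.7%), and over the 236 higher ones in 121 (51.3%). Among genes without overlap that were not bright it was nearer in 210 of 623 lower (33.7%) and 307 of 491 higher ones (62.5%). The share over all bright genes was not counted, so these shares have no reference. The 2-month HFD telogen mean, on the slide of the 2-month ND arrays, was 2.27 for Msx2, 4.44 for Odc1, 3.42 for Bcl2l1 and -0.63 for Bhlhe41. For Bhlhe41 this 2-month HFD mean lies below the 24-month mean of 0.04. Among the higher genes, the 2-month HFD mean was nearer to the 24-month mean for Bcl2l1, Zhx2 (0.43) and Piwil2 (1.47). The same held for Rab11fip5 (1.13), Birc6 (1.76) and Chic1 (1.37). For Cst6, Ly6e, Angptl4, Klf10, Txnip and Egr1 it was nearer to the 2-month ND mean.

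In anagen only single arrays exist, so the differences there have no replicate check. Between the 24-month and the 2-month ND anagen array, 10 of the 12 higher genes were higher and 9 of the 12 lower genes lower. Over all bright genes 54.2% were above 0 and 45.8% below. Angptl4 differed by 4.04, Chic1 by 2.40, Bhlhe41 by -3.20 and Pcolce2 by -7.03. Against the 2-month HFD anagen array, which shared slide 3, the counts were 9 of 12 and 8 of 12, beside 56.3% and 43.7% of all bright genes. The same genes gave 3.06, 1.75, -4.01 and -8.29. Both Pcolce2 differences rest on a level of -6.97 on the 24-month anagen array, where Vmn1r12 and Prl7d1 stood at -7.16. Their size is therefore not firmly measured. Among all 236 and 569 bright genes without overlap, 64.8% of the higher ones were higher in anagen and 57.8% of the lower ones lower, and 58.5% and 45.5% against the array of the same slide. For the higher and for the lower genes, the share against the array of the same slide is near that of all bright genes. Msx2, lower in telogen, was 0.64 higher in 24-month anagen against ND and 1.00 higher against HFD.

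**Figure D4:**
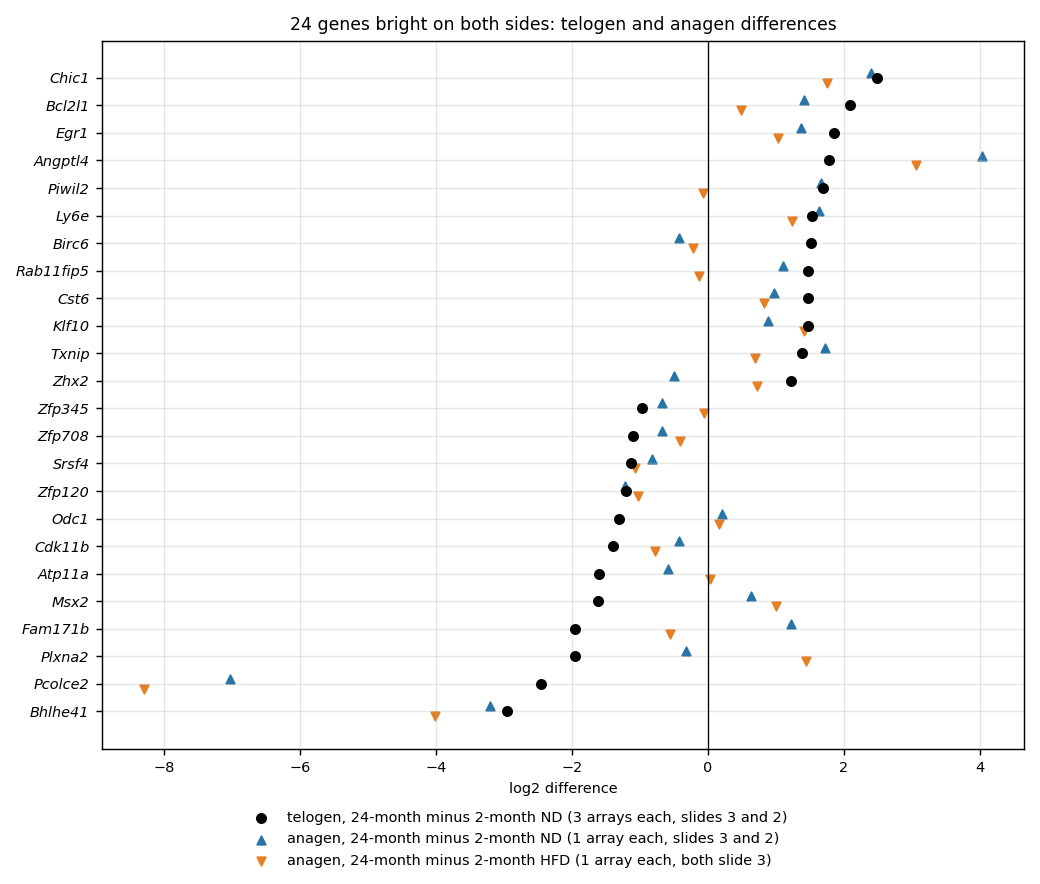
Log2 differences of the 24 bright genes in telogen (black circles, 3 arrays per age) and between single anagen arrays, 24-month minus 2-month ND (blue) and 24-month minus 2-month HFD on the same slide (orange). Angptl4, Chic1, Bhlhe41 and Pcolce2 have the same sign in all 3, and Msx2 the opposite sign in both anagen differences. Both anagen differences of Pcolce2 rest on 1 very dim value, -6.97 on the 24-month array.

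Gene groups are given by how many of their tested members lay above or below 0 and by their median, beside the median of -0.09 over all genes, with no test of a group. No member of the 26 pathway lists passed the test. The sign of the median held under median scaling, quantile normalization, the percentile over detected probes and normexp background correction for 14 lists and changed under at least 1 for 10, and 2 lists had a median of 0.00. With slide as a term 19 of the 26 kept the sign of their median. That term rests on single anagen arrays. Values with it are given for some of the lists and genes that turned or moved by over 1.5 times. Where none is given, a difference need not have held.

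Bulge stem cell genes lay mostly below 0, by little. Of 24 members 19 were lower and 5 higher, with a median of -0.26 (-0.22 with the slide term). In bulk RNA, fewer cells of a type and less RNA per cell cannot be told apart. Cd34, the surface protein used to sort bulge cells, was at 4.73, 4.85 and 5.57 at 24 months and at 5.38, 5.80 and 5.62 at 2 months (-0.55 ± 0.27; limma, adjusted p 0.644). Lgr5, a Wnt-pathway receptor of cycling and primed stem cells, was at 3.20, 3.26 and 2.86 against 4.17, 4.14 and 3.30 (-0.76 ± 0.36). The Cd34 groups overlap and the Lgr5 groups do not. The transcription factors of the bulge gave -0.48 ± 0.26 for Lhx2, -0.24 ± 0.36 for Sox9, -0.49 ± 0.40 for Foxc1 and 0.01 ± 0.32 for Nfatc1, and Runx1, which promotes activation, gave 0.56 ± 0.29. The keratins Krt15, Krt5 and Krt14 differed by -0.20 ± 0.30, -0.42 ± 0.29 and 0.11 ± 0.26. The intervals of Krt15 (-0.85 to 0.44), Nfatc1 (-0.68 to 0.70) and Krt14 (-0.46 to 0.68) do not reach a change of 2-fold, which is 1 on this scale. They cover only the spread among arrays. Age and slide cannot be told apart, so a 2-fold change with age is not excluded. The sign of Nfatc1 and Krt14 turned under other scalings.

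Genes of the basement membrane and of adhesion to it had the lowest median of the pathway lists, -0.48, with 23 of 29 members below 0 and 21 of the 25 bright ones. Tnc, a matrix glycoprotein of the bulge, was at -1.86, 0.34 and 0.06 at 24 months and at 1.95, 2.91 and 1.61 at 2 months (-2.64 ± 0.63; limma, adjusted p 0.246). Lamb1, a laminin subunit, was at -5.27, -4.68 and -3.97 against 2.63, -0.41 and -2.24 (-4.63 ± 1.33), and 2 of its 3 24-month arrays were well above background. Neither gene's groups overlap, though the 2-month arrays of Lamb1 are widely spread. For the parts of the hemidesmosome, Col17a1 was at 6.31, 5.94 and 6.44 against 6.43, 6.71 and 7.03 (-0.49 ± 0.24) and Itgb4, an integrin that binds laminin, at 3.16, 2.97 and 3.45 against 3.54, 4.12 and 3.80 (-0.63 ± 0.28). Postn, a matricellular protein, differed by -0.72 ± 0.25, with 3 of 3 probes lower. Fn1, fibronectin, differed by 2.47 ± 0.80 on its tested probe, while another probe, which the filter on dim probes had left out, gave -2.97. With the slide term the list median was -0.14, Tnc gave -1.05, Lamb1 -7.32, Itgb4 -0.03, Postn -0.12 and Fn1 -0.14. Of the fibroblast markers 8 of 10 lay below 0 with a median of -0.52, Col6a1 differed by -1.17 ± 0.33, and their mean level was -1.23, -0.41 and -0.52 at 24 months and 0.13, 0.10 and -0.35 at 2 months. Dpt was not well above background on the 24-month arrays and was at least 1.27-fold lower there (limma, adjusted p 0.541). With the slide term the fibroblast median was -0.15 and Col6a1 gave -0.56. The part of such cells in the adhesion genes was not tested.

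Among the pathways that set rest and activation, most medians were below that of all genes. BMP and TGF-beta genes had 22 of 33 members below 0 and a median of -0.30 (-0.10 with the slide term). The ligand Bmp2, a signal for rest, was at -0.94, -0.63 and -1.51 against 0.64, 0.92 and -0.60 (-1.34 ± 0.51). Tgfb2, a ligand that counters BMP signals at activation, gave -1.75 ± 0.73 with 1 of its 2 probes lower, and the decoy receptor Bambi -1.46 ± 0.79. All 3 turned with the slide term, to 0.41, 0.72 and 0.28. Wnt pathway genes had 22 of 33 below 0 and a median of -0.23. In that list the ligands pointed both ways: Wnt7b was at 1.28, 1.35 and 0.72 against -0.53, -0.20 and 0.28 (1.27 ± 0.38), and Wnt10a at -1.38, 0.71 and 0.43 against 1.35, 1.55 and 1.79 (-1.64 ± 0.59). In both the groups do not overlap. For Nkd1, which codes for a protein that dampens Wnt signals, the 24-month arrays were not well above background and lay at least 7.27-fold below the 2-month arrays (limma, adjusted p 0.297). With the slide term Wnt7b and Nkd1 turned, to -0.40 and 0.54, and the Wnt list median was -0.21. In the hedgehog list (8 of 13 below 0, median -0.27), the ligand-binding inhibitor Hhip differed by -2.97 ± 0.76, well above background on 1 of 3 24-month arrays. Hhip gave -0.11 with the slide term, and the list median was -0.06. FGF and EGF receptor pathway genes (12 of 16 below 0, median -0.29) included Fgf18, a ligand that maintains telogen, at 1.74, 2.26 and -1.20 against 2.66, 2.21 and 2.20, where 24-month replicate 3 alone was low. Spry1, a feedback inhibitor of that pathway, differed by -0.60 ± 0.33. With the slide term the list median was 0.03, and Fgf18 and Spry1 turned to 1.26 and 1.75. Jak-Stat genes had 16 of 24 below 0 (median -0.23, and -0.07 with the slide term), with the receptor subunits Il6st at 1.34 ± 0.58, Il4ra at 0.54 ± 0.29 (its probes disagree) and Il20ra at -2.53 ± 0.97. Notch genes had a median of 0.08, which was negative under some scalings.

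Epidermal differentiation genes had the highest median of the pathway lists, 0.56, with 23 of 33 members above 0 and 17 of 24 bright ones. Cdsn, an adhesion protein of the cornified layer, was at 3.45, 2.28 and 2.71 at 24 months and at 1.02, -0.51 and 2.02 at 2 months (1.97 ± 0.62; limma, adjusted p 0.406). Asprv1, a protease of the granular layer, was at 5.30, 4.74 and 4.26 against 3.88, 2.01 and 2.37 (2.01 ± 0.65). In both genes the groups do not overlap. Lce1b, a late envelope gene, differed by 4.41 ± 1.34, with 2 of 3 2-month arrays well above background and replicate 2 at -7.97. The mean level of the list was 2.18, 1.12 and 1.54 on the 24-month and 0.95, -0.30 and 1.58 on the 2-month arrays, so 2-month replicate 2 was the lowest and replicate 3 was within the 24-month range. Without single arrays the median ran from 0.18 to 0.77, and with the slide term it was 0.05, with Cdsn at 0.37, Asprv1 at 0.03 and Lce1b at 1.51. Basal and activation keratins had 10 of 14 above 0 and a median of 0.28, which was -0.02 without 24-month replicate 3. Upper follicle markers, with 4 of 6 above 0 and a median of 0.62, had a mean level of 2.04, 2.04 and 2.24 against 2.28, 0.95 and 1.35. Markers of the epidermis between follicles had a median of 0.07, with 3.23, 2.06 and 2.80 against 3.00, 1.78 and 3.12. The part of such cells in the differentiation genes was not tested.

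Lipid and energy genes are given by class. PPAR targets and genes of fatty acid oxidation had 17 of 28 members above 0 and a median of 0.41, which was 0.59 with the slide term and 0.20 to 0.47 without single arrays. Beside Angptl4, Ehhadh, of peroxisomal oxidation, was at -0.93, -0.81 and 0.21 against -6.06, -4.18 and -2.18 (3.63 ± 1.19), with 2 of 3 2-month arrays well above background. Both genes were also higher on the 24-month anagen array, Ehhadh by 2.35 against ND and 1.73 against HFD. Cholesterol and fatty acid synthesis genes had 18 of 27 below 0 and a median of -0.13, near the -0.09 of all genes. That median ran from -0.49 to 0.05 without single arrays. The mean level of the list overlapped between ages, with 0.84, 1.59 and 0.76 at 24 months and 1.80, 0.85 and 1.15 at 2 months. Fdft1, which codes for squalene synthase, gave -1.50 ± 0.56 (its probes disagree), the elongase Elovl5 -0.76 ± 0.34 (likewise) and the sterol desaturase Sc5d -1.86 ± 1.03. With the slide term the median of the synthesis list was -0.49, and Fdft1 gave -2.60. The Fdft1 mean in 2-month HFD telogen was 2.21, below its 24-month mean of 2.86. Oxidative phosphorylation genes, all 35 of them bright, had 17 above and 18 below 0 with a range of -0.60 to 0.68. Among them Uqcrfs1, of complex III, gave -0.58 ± 0.24, and the complex I subunits Ndufa1 and Ndufb9 gave -0.60 ± 0.28 and 0.67 ± 0.33. Ribosomal protein genes had a median of 0.04, with 24-month replicate 3 at a mean level of 6.20 and the other arrays between 5.14 and 5.77. In that list Rplp1 gave 0.63 ± 0.32 and Rpl37 -2.04 ± 1.08.

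Stress and clock genes were divided. Of 31 immediate early genes, which respond within minutes to stimuli that include tissue handling, 18 lay above 0. The median was 0.09, -0.04 with median scaling and 0.59 with the slide term. The AP-1 genes shown above were among the higher ones without clear separation: Fos was at 1.27, 2.94 and -1.55 against -1.60, -5.44 and -0.73 (3.47 ± 1.33), and Fosb at 3.93, 4.75 and 2.32 against -1.61, 3.06 and 1.80 (2.58 ± 1.15). Both overlap between ages. Genes of the unfolded protein response and heat shock had 24 of 32 below 0 and a median of -0.35 (-0.10 with the slide term). Hsp90b1, a chaperone of the endoplasmic reticulum, gave -0.75 ± 0.30 and Eif2ak3, the stress sensor PERK, -1.78 ± 0.75, while the chaperone Hyou1 gave 1.82 ± 0.76, with 1 of its 3 probes lower. They gave -0.07, -1.08 and -0.30 with the slide term. Circadian clock genes had 14 of 19 below 0 and a median of -0.35 (-0.46 with the slide term). Next to Bhlhe41, the repressor Per2 gave -0.96 ± 0.43 (its probes disagree; -0.07 with the slide term) and Nfil3, a repressor of clock output, 1.1 ± 0.58. The labels give no time of day. Antioxidant genes lay evenly, 14 above and 14 below 0, with Srxn1, which restores peroxiredoxins, at 2.24 ± 0.89, heme oxygenase Hmox1 at 1.21 ± 0.57 and catalase, Cat, at -0.60 ± 0.27. Hmox1 turned with the slide term, to -1.27. Autophagy and lysosome genes had a median of -0.16, with Atg12, a conjugation factor, at -0.93 ± 0.39 and the protease Ctsb at -0.41 ± 0.21. With the slide term this median turned to 0.07, and Atg12 gave -0.02.

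Cell cycle, damage and senescence genes lay on both sides of 0. CDK inhibitors and cyclins had 9 members above and 9 below 0. Rb1, the retinoblastoma protein that holds cells out of S phase, was at 0.33, 1.33 and 1.90 against -1.32, -2.87 and -0.59 (2.78 ± 0.57; limma, adjusted p 0.166), with its second probe at 0.67 ± 0.48, and it was not bright on both sides. The Rb1 mean was 0.90 in 2-month HFD telogen, on the slide of the 2-month ND arrays, and 0.93 in 5-month ND telogen. Both lie nearer to its 24-month mean of 1.19 than to its 2-month ND mean of -1.59. Cyclin D1, Ccnd1, gave -0.63 ± 0.31 and the inhibitor Cdkn2c 1.37 ± 0.69, which turned with the slide term (-0.52). The senescence markers Cdkn2a and Cdkn1a differed by -0.20 ± 0.37 and -0.10 ± 0.60. Cdkn2a, at -4.54, -4.41 and -3.66 against -4.16, -4.18 and -3.66, was dim at either age. Its interval of -1.0 to 0.59 covers only the spread among arrays, and with 1 dim probe a 2-fold rise is not excluded. With the slide term Cdkn2a gave 0.04. Among secreted factors of senescent cells 10 of 19 lay above 0 and the median was 0.00. They included the growth factor binding proteins Igfbp3 at -1.82 ± 0.50 and Igfbp2 at 0.74 ± 0.35 and the protease inhibitor Timp1 at -0.82 ± 0.44. DNA replication and mitosis genes had a mean level of -0.77, 1.47 and -0.74 at 24 months and 0.88, -0.52 and -0.38 at 2 months, so 24-month replicate 2 and 2-month replicate 1 stood apart within their groups. The median was -0.07. p53 targets and repair genes had 18 above and 18 below 0. Parp1, a sensor of DNA breaks, was at -2.04, -0.52 and -1.30 against 0.45, 0.50 and 0.00 (-1.60 ± 0.47), the ligase Lig4 gave -1.88 ± 0.67 and Sesn1, a p53 target, 0.94 ± 0.37. With the slide term Parp1 gave -0.86 and Sesn1 0.34. Sirtuins and chromatin modifiers had a median of 0.05, with the Polycomb genes Bmi1 and Ezh1 at 0.80 ± 0.30 and 1.06 ± 0.37 and the DNA demethylase Tet2 at -2.73 ± 0.98. For Tet2 the 24-month arrays ran from -4.76 to 0.86.

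Inflammatory lists were centred near 0 as well. Interferon response and antigen presentation genes had 11 above and 14 below 0 with a median of -0.02. Bst2, tetherin, was at 0.15, -0.36 and 0.40 against 0.78, 1.37 and 1.40 (-1.12 ± 0.29), the nucleic acid sensor Zbp1 gave -1.14 ± 0.31 (its probes disagree) and the class I gene H2-D1 0.58 ± 0.28. In the interleukin-1 and NF-kappaB list (median -0.07), Nfkbiz, an atypical IkappaB protein, was at -0.09, -0.55 and 0.95 against -3.70, -1.61 and -1.26 (2.30 ± 0.64). The Nfkbiz mean was 0.45 in 2-month HFD and 0.21 in 5-month ND telogen. Both lie above its 24-month mean of 0.11, and the 2-month ND mean was -2.19. With the slide term Nfkbiz gave 6.8, Bst2 -0.47, Zbp1 0.13 and the list median 0.51. The receptor Il1r1 gave 2.09 ± 0.84, and Irak3, which dampens this pathway, -3.16 ± 1.32, with 2 of 3 24-month arrays well above background.

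**Figure D5:**
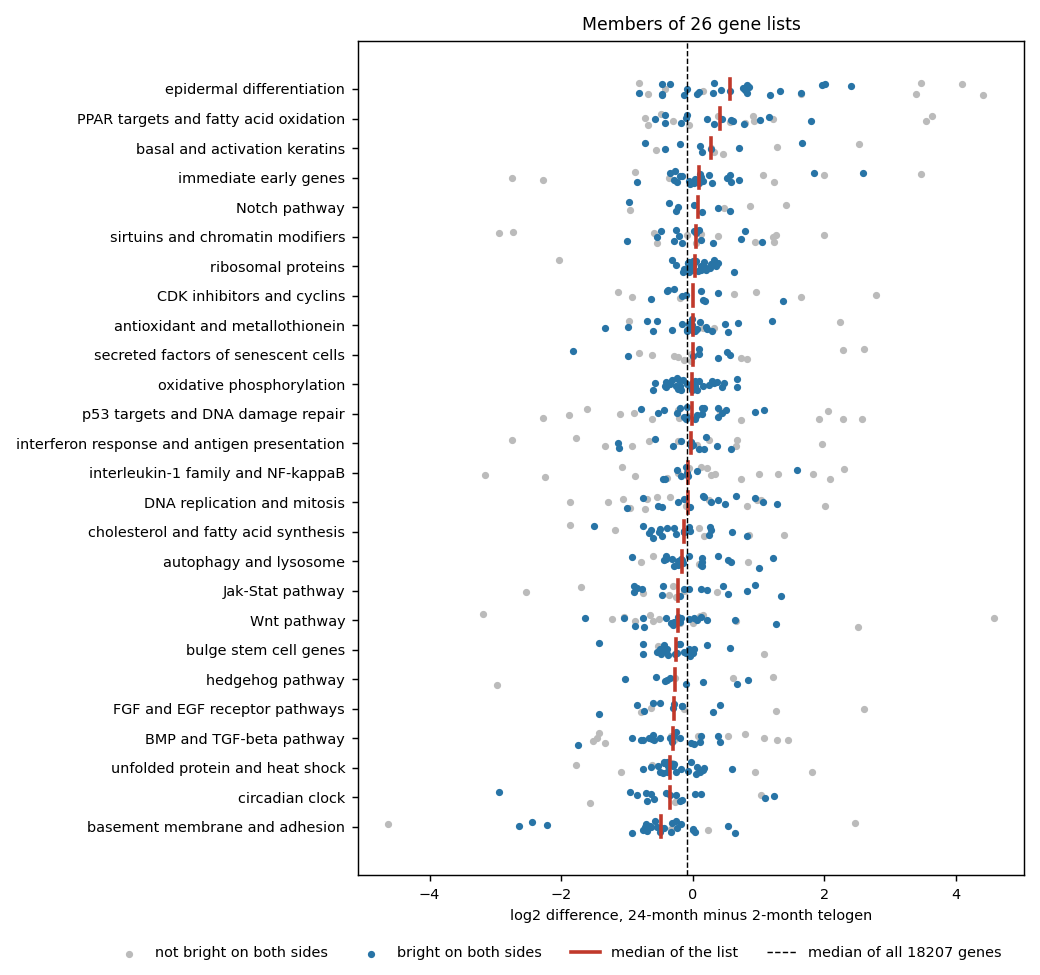
Log2 difference (24-month minus 2-month telogen) of each tested member of the 26 gene lists, with members bright on both sides in blue, the list median as a red bar and the median of all 18207 genes as a dashed line. Epidermal differentiation (0.56) and PPAR targets (0.41) lie highest and basement membrane and adhesion genes (-0.48) lowest, with wide overlap of all lists.

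Markers of other cell types give the purity of the samples as far as arrays can. Of the 9 Schwann cell and neuron markers 3 lay above 0 and 6 below, with a median of -0.08. Red blood cell markers had 6 of 7 above 0 and a median of 0.31, with mean levels of -2.13, -3.10 and -1.23 at 24 months and -2.76, -2.98 and -2.97 at 2 months. Of the globins, Hba-a2 gave 1.44 ± 0.48 and Hbb-b2 2.39 ± 0.84, and the list median was -0.89 with the slide term. Macrophage and Langerhans cell markers had 5 of 13 above 0 and a median of -0.18, with mean levels of -1.47, -2.16 and -1.13 against -1.66, -1.90 and -1.13. Their members Fcer1g and Tyrobp pointed in opposite directions, 2.75 ± 1.29 and -2.77 ± 1.48. T and NK cell markers had a median of -0.27 (Cd2 -2.68 ± 1.20, Cd3e -0.93 ± 0.50) and neutrophil markers one of 0.22 (Camp 1.85 ± 0.52). In the melanocyte list the pigment gene Pmel was at -4.16, -4.41 and -3.11 against -0.09, -0.43 and 0.06 (-3.74 ± 0.89; limma, adjusted p 0.246), with no overlap, but 4 of 8 members lay above 0 and the median was 0.06. With the slide term Pmel gave -2.06, and Fcer1g gave 5.01. Of dermal papilla markers (median 0.03), Alpl, tissue-nonspecific alkaline phosphatase, was at least 9.69-fold higher (limma, adjusted p 0.0595), well above background on 0 of the 2-month arrays. Its level on the 24-month anagen array was -7.16. The medians were -0.55 for adipocyte, -0.06 for endothelial, 0.16 for smooth muscle, -0.04 for skeletal muscle, 0.09 for mast cell, 0.33 for Merkel cell, -0.07 for sebaceous gland and -0.38 for hair shaft markers. The medians also turned with the slide term for adipocyte (0.40), T and NK cell (0.42), macrophage and Langerhans cell (0.62), neutrophil (-0.71), melanocyte (-0.65), mast cell (-0.67), sebaceous gland (0.35) and skeletal muscle (0.15) markers. Car3 of the adipocyte list differed by -0.83 ± 0.39, Cidec was at least 1.09-fold lower, Myl1 of muscle was at least 1.1-fold lower, Foxn1 of the hair shaft differed by -1.43 ± 0.79 and S100b of Schwann cells by 2.28 ± 0.99. The part of other cells in the differences of the stem cell genes was not tested.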

How the data were processed

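Per the labels' protocols, RNA from the columns of a commercial kit was labelled with Cy3, and each sample was hybridised to a one-colour Agilent mouse array. The spot intensity values deposited per array came from Agilent Feature Extraction 10.7.1.1 per the file headers and the submitters' processing notes. The headers name genome build mm9. The authors deposited a signal per probe for the series, on a linear scale and not centred, which matched the processed intensity over the 75th percentile of the same array (column medians 0.111 to 0.168 on the 24-month and 0.126 to 0.128 on the 2-month arrays). The log2 of this deposited signal was analysed. Saturated spots numbered 0, and 62 to 159 outlier spots per array were left out where scanner files were used.

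Of 56605 probes, 32994 matched 1 RefSeq symbol through their accessions and 23611 none. A gene was its tested probe with the highest mean over the 15 telogen arrays. limma 3.58.1 (R 4.3.3, data.table version 1.17.8) was fitted over those arrays as 5 groups, two-sided, with Benjamini-Hochberg adjustment over 18207 genes and a threshold of 0.05. The fit was tested on simulated data. The comparison and the gene lists were chosen with earlier results of these data known. Named are called genes whose groups do not overlap, without predicted names, then the bright genes without overlap of smallest p up to 12 per direction, then up to 3 members per pathway list and 2 per marker list with a p below 0.1, and 13 key genes. A few genes that this rule names are not reported here. No set test was run. Alternatives were the scanner values, normexp (offset 50), other scalings and filters, the mean over probes, every probe, other sets of arrays, trend, robust, array weights, replicate and slide blocks, other thresholds and single arrays left out. The number of arrays limits the precision. Replicate numbers did not pair samples across ages, as deviations from the group means correlated at 0.03, -0.02 and 0.02. Of the 117 named genes, 82 had an upstream window from RefSeq.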

Additional observations from a re-analysis of the deposited data

Results flagged for a closer look

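Some genes whose telogen groups did not overlap had the opposite sign between the single 24-month and 2-month ND anagen arrays. This difference between the phases was not tested, as anagen has 1 array per age. Msx2 had a log2 difference of -1.62 in telogen and 0.64 in anagen. Odc1 was at -1.30 in telogen and 0.21 in anagen, and Fam171b at -1.96 and 1.22. On the higher side, Zhx2 was at 1.23 in telogen and -0.50 in anagen, and Birc6 at 1.52 and -0.42.

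Probes without a gene symbol were outside the gene-level comparison. When each of 41310 probes was tested, 15562 of them unnamed, limma called 12, and 5 of these were unnamed, 4 higher and 1 lower at 24 months.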

How the results depend on the processing

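The count of 7 called genes became 12 with quantile normalization, 12 when every probe was tested, 2 when genes had to be well above background on all 6 arrays, 13 with a trend in the variance (2 of them bright), 0 when only the 6 arrays were fitted, 1 with slide as a block, 17 at an adjusted p below 0.1 (1 of them bright) and 3 below 0.01. Leaving out single arrays gave 4 to 5. Scanner values, normexp, median scaling, the percentile over detected probes, no filter, the mean over probes, all 20 arrays, robust variance and array weights gave 6 to 9. Of the 7 genes, 4 were still called with normexp, where Prl7d1 and Tbx4 were among those lost, 6 with median scaling, which lost Gm28154, 6 with the mean over probes, which lost Mei1, and 6 with array weights, which lost Tbx4. Without single arrays 3 to 5 of the 7 were still called, Vmn1r12, Mei1 and Prl7d1 each time. With the replicate number as a block 6 genes were called, without Gm28154, and the numbers did not pair the samples. Signs turned for Nfatc1 with normexp (-0.05), median scaling (-0.13) and array weights (0.00), for Krt14 with median scaling (-0.02) and array weights (-0.04), for Cdkn1a with quantile normalization and with the percentile over detected probes (0.01 in both), for Fn1 without the filter (-2.97), and for Zbp1 (0.10) and Il4ra (-0.25) with the mean over probes. Without single arrays, Cdkn1a ran from -0.79 to 0.43, Krt14 from -0.15 to 0.25, Krt15 from -0.54 to 0.03, Nfatc1 from -0.27 to 0.18 and Sox9 from -0.59 to 0.02. With slide as a block, differences turned for the called genes Prl7d1 (-1.50), Vmn1r12 (-3.30), Saa4 (-3.45) and Mei1 (-2.64), and for Plxna2 (0.31), Bmp2 (0.41), Tgfb2 (0.72), Bambi (0.28), Fn1 (-0.14), Hyou1 (-0.30), Nkd1 (0.54), Wnt7b (-0.40), Zbp1 (0.13), Fgf18 (1.26), Spry1 (1.75), Hmox1 (-1.27), Cdkn2c (-0.52), Rpl37 (0.56), Nfatc1 (-0.37), Cdkn2a (0.04), Cidec (0.63), Hba-a2 (-0.89), Hbb-b2 (-1.31), Camp (-1.55), Cd3e (0.43) and Dpt (0.26). The cause was not tested. With 3 arrays per age, and fewer spots above background on the 24-month arrays, differences of dim genes are the least certain.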

Other observations

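Zinc finger genes were looked at after 3 of them stood among the 12 lower bright genes, so what follows was chosen after the values were seen and is a description. Of 321 tested genes whose symbol is Zfp and a number, 163 were bright on both sides. In telogen 104 of these were lower and 59 higher at 24 months, with a median difference of -0.15 beside -0.10 over all bright genes. The groups did not overlap in 25 lower (15.3%, against 6.76% of all bright genes) and in 7 higher genes (4.29%, against 2.8%). For those 25 genes the median was -0.81 in telogen. It was -0.50 between the 24-month and 2-month ND anagen arrays, with 23 of 25 lower. Of all 163 genes 58.9% were lower there, and of all bright genes 45.8%. Those anagen arrays lie on slides 3 and 2, as the telogen arrays do. Between the anagen arrays of slide 3 the median of the 25 genes was 0.02, with 12 of 25 lower. Of all 163 genes 49.1% were lower in that difference, and of all bright genes 43.7%. The mean level of the 163 genes was 1.32, 1.43 and 1.18 on the 24-month and 1.52, 1.42 and 1.43 on the 2-month telogen arrays. The mean was 1.36 in 5-month ND and 1.39 in 2-month HFD telogen. The part of the slide in this pattern was not tested.

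Slide 3 arrays of either age can also be set beside the wider lists. Among the 236 bright genes higher without overlap, the 24-month anagen array reached the range of the 24-month telogen arrays in 124 and the 2-month HFD anagen array in 101, against 70 for the 2-month ND anagen array on slide 2. In the same order the shares of the higher genes were 52.5%, 42.8% and 29.7%. Among the 569 lower ones these counts were 315, 323 and 251 (55.4%, 56.8% and 44.1%). Shares over all bright genes were not counted, so the level reached without the choice of genes is not known. The part of the slide was not tested.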
